A study of Mus musculus with 9 samples.

Results

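The 10 genes described here are Dazl, Ddx4, Sycp1, Sycp3, Mael, Tex19.1, Hormad1, Slc25a31, Stk31 and Taf7l, a set of germline genes chosen by symbol from the 16636 genes of the deposited count table. All 10 were in the table and all 10 passed the filter on low counts, which kept 14246 genes for testing. RNA was taken from E14, a mouse embryonic stem cell line of wildtype genotype kept in the naive state with 2i/LIF (the cytokine LIF with inhibitors of the kinases MEK and GSK3) on fibronectin. There were 3 groups of 3 biological replicates: cells left untreated, cells given a luciferase siRNA (siLuc) as a transfection control, and cells given siRNA to Stag3 (siStag3). Transfected cells received siRNA at seeding and again on the next day, and were treated for 48 hours. Untreated cells are wildtype cells with no listed treatment, so the siLuc group is the one that shares transfection with siStag3.

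Many germline genes are kept silent outside the germ line by DNA methylation of CpG-rich promoters, and in embryonic stem cells also by a non-canonical Polycomb complex, PRC1.6, which binds DNA through E2F6 and through the MGA-MAX pair. Naive culture in 2i/LIF is known for low DNA methylation, and several germline genes are transcribed there without meiosis. Dazl and Ddx4 encode RNA-binding proteins of germ cells, Mael and Stk31 belong to the piRNA pathway and the nuage, Tex19.1 takes part in the control of transposons, and Hormad1, Sycp3 and Sycp1 build the chromosome axis and the synaptonemal complex, which joins homologous chromosomes in meiosis. Taf7l is a germ cell form of a subunit of the transcription factor TFIID, and Slc25a31 is the ADP/ATP carrier of male germ cell mitochondria.

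The promoters are shown because the silencing described above acts on promoters of many germline genes. Whether it acts on those of these 10 genes was not tested. RefSeq promoters of GRCm38.p6 were found for 10 of the 10 genes, and the 250 bases before the annotated start were read for each, with the first listed start where a gene had several. The counts were made on another build per the submitters' processing notes (GRCm39), so these coordinates belong to the promoter table alone. Each sequence is written 5′ to 3′ on the strand of the gene. Capitals mark the E-box CACGTG, the palindromic core bound by MGA-MAX, and the E2F6-type motif GCGGGA or its reverse complement TCCCGC. The letters of the E-box and of the E2F6-type motif cannot occupy the same bases in full. Ddx4 and Taf7l are given as the genes that passed the test against untreated cells, Stk31 and Hormad1 as 2 of the most abundant, and Tex19.1 as an abundant gene with no E-box in the window.
Ddx4, chr13:112652311-112652560, minus strand: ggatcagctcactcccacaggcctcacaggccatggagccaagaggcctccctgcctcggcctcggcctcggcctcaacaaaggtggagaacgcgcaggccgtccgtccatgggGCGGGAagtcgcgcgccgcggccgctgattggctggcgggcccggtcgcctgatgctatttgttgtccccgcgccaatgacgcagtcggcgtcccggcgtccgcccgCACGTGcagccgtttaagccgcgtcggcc
Taf7l, chrX:134476491-134476740, minus strand: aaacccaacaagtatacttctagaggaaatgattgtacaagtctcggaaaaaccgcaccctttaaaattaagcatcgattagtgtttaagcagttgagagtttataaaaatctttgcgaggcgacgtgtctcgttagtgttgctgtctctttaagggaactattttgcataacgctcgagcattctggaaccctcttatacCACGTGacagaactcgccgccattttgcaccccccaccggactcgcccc
Stk31, chr6:49395289-49395538, plus strand: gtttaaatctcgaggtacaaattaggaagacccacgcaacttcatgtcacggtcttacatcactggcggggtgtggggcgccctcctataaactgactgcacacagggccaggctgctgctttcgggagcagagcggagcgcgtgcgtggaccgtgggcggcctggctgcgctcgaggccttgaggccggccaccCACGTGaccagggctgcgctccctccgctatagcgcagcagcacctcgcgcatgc
Hormad1, chr3:95559427-95559676, plus strand: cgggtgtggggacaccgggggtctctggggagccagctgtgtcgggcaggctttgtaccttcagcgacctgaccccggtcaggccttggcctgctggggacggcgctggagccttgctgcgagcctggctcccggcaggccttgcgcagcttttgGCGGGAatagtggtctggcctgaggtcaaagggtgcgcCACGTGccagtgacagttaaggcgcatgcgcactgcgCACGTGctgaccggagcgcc
Tex19.1, chr11:121145893-121146142, plus strand: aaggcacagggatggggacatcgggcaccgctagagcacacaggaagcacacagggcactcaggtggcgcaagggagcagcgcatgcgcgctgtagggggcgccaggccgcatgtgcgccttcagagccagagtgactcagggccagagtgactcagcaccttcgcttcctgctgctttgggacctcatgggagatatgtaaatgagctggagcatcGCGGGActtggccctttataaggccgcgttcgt

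An E-box was present in the window of 8 of 10 genes, and in 6.05% of the 27025 promoters of the table read over the same 250 bases. Dazl and Tex19.1 had none. The E2F6-type motif was found in 5 of 10 genes (Ddx4, Sycp3, Mael, Tex19.1 and Hormad1), against 16.9% of all promoters. Both motifs stood together in 4 of 10 genes and in 1.47% of all promoters. Hormad1 and Sycp3 each had 2 E-boxes, 57 and 20 bases before the start in Hormad1 and 64 and 43 bases before it in Sycp3. The windows held 12 to 31 CG dinucleotides with a median of 18, and the median over all promoters was 6. Ddx4 had the most of the 10 genes, 31, more than 95.1% of all promoters, and Sycp3 the fewest, 12, more than 66.2%. Both motifs themselves hold a CG, and the shares over all promoters were not matched for CG content. A match describes the letters only, and neither binding nor methylation was measured.

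**Figure D1:**
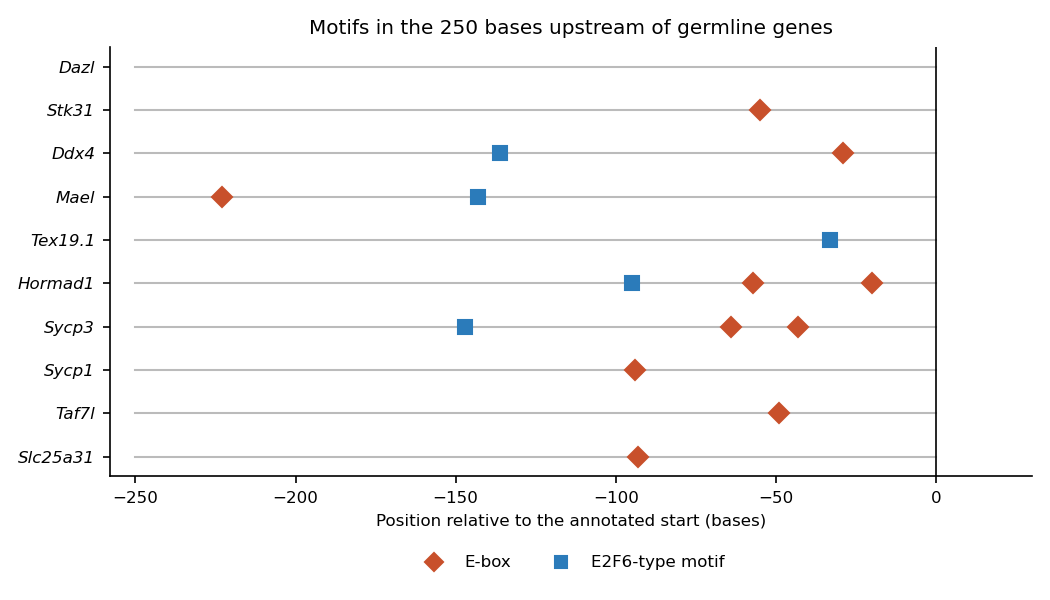
Positions of the E-box (diamonds) and of the E2F6-type motif (squares) in the 250 bases upstream of the annotated start of each of the 10 genes, plotted by the first base of each match in bases from the start. An E-box appears in 8 of 10 genes, and Dazl has neither motif.

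Total counts ran from 29332436 to 44527534 per library, so that 3 counts, the smallest amount taken as distinct from 0, equalled 0.065 to 0.099 CPM (counts scaled to one library size after TMM normalization), for counting error only. Each group held 2 libraries of Set 1 (experiments 1 and 3) and 1 library of Set 3 (experiment 5 in untreated and siStag3, experiment 1 in siLuc), as the column names give them. What distinguishes the sets and the experiments is not described in the labels. Stag3, a meiotic cohesin subunit and the target of the siRNA, was at 25.7 ± 2.54 CPM in untreated, 24.2 ± 2.20 in siLuc and 14.8 ± 1.12 in siStag3 (SD, n = 3), a log2 fold change of -0.71 (SE 0.0722) against siLuc with an edgeR adjusted p of 0.00205. In a fit without a term for the library set it was also -0.71 (SE 0.11), with an edgeR adjusted p of 0.605. That fit called 0 of the 14246 genes tested. All 8 stem cell markers were abundant, from 168 to 1576 CPM in single libraries. Of the spermatid markers 2 of 8 were in the table, with a summed level of 1.32 to 3.14 CPM. Primordial germ cell markers (6 of 6 in the table) summed to 455 to 492 CPM, with Kit at 310 CPM on average. Fibroblast markers (6 of 7 in the table) summed to 1.56 to 2.86 CPM, primitive endoderm markers (6 of 6) to 2.01 to 3.90 CPM and two-cell-like markers (5 of 8) to 0.997 to 2.25 CPM. In bulk RNA, fewer cells expressing a gene and less RNA per cell cannot be told apart, so none of the levels below says how many cells expressed a germline gene.

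The germline genes differed widely in level. Compared per kb of the longest annotated transcript (GENCODE M21), Tex19.1 was at 23.1 ± 6.07 CPM per kb in untreated cells, Hormad1 at 20.6 ± 9.18, Stk31 at 15.2 ± 7.0 and Dazl at 12.5 ± 5.41 (SD, n = 3). Neighbours among these 4 genes overlapped within these SDs, which include the difference between the library sets. Within every single library, however, Hormad1 was above Stk31 and Stk31 above Dazl. The order of Tex19.1 and Hormad1 changed between libraries. Sycp3 followed at 4.42 ± 1.5 CPM per kb, below Dazl by more than the SDs of both. Mael was at 1.15 ± 0.198, Ddx4 at 0.895 ± 0.142, Taf7l at 0.622 ± 0.160 and Slc25a31 at 0.387 ± 0.105 CPM per kb, with each overlapping the next within 1 SD. Each untreated library nonetheless held these genes in this order. Sycp1, the transverse filament protein that bridges paired chromosomes, was lowest at 0.106 ± 0.0791 CPM per kb, and its counts ran from 1 to 37 per library. By mean CPM over all libraries, Stk31 lay above 69% of the genes tested and Sycp1 above 7.64%. Among synaptonemal genes, the axis protein Hormad1 and the lateral element Sycp3 were thus far above the transverse filament gene Sycp1.

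Part of these levels rests on reads that other genes could share. Of the 31-base sequences of Sycp3 transcripts, 46.5% also occur in transcripts of Chpt1, which overlaps it, on either strand. For Hormad1 36.3% were shared, mostly with Gm15529, for Sycp1 18.1%, mostly with Sycp1-ps1, and for Tex19.1 6.31%, all with Tex19.2. For Taf7l 0.134% were shared, and Dazl, Ddx4, Mael, Slc25a31 and Stk31 shared none. Strand use in counting is not given in the sources used here, so the values of Sycp3, Hormad1 and Sycp1 are uncertain in this respect.

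The library sets differed for most of the germline genes. In siLuc, Stk31 was at 68.4 and 57.7 CPM in Set 1 and at 26.3 CPM in Set 3. In untreated cells it was at 55.8 and 67.7 CPM against 23.9, and in siStag3 at 51.0 and 54.5 against 16.3. Every Set 3 library was thus below every Set 1 library for this Tudor-domain, kinase-like gene. Dazl, the RNA-binding protein that licenses germ cell development, behaved the same way, at 38.9 to 53.2 CPM in the 6 Set 1 libraries and 14.3 to 23.7 CPM in the 3 Set 3 libraries. Tex19.1 was at 43.2 to 47.3 CPM in Set 1 and 26.1 to 28.1 CPM in Set 3. Hormad1 (30.8 to 54.0 CPM against 15.9 to 29.8) and Sycp1 (0.337 to 1.02 CPM against 0.033 to 0.315) also stood apart, by narrow margins. The share of all genes tested whose sets stood apart in this way was not computed.

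In the edgeR fit with group and set, 9 of 10 germline genes fell in Set 3, against 21.2% of the 14246 genes tested that fell (42.7% changed in either direction). The 10 genes had a median of -0.73 on the log2 scale, where all genes had 0.00 (0.00255). Stk31 fell by 1.43 on the log2 scale (SE 0.0945, edgeR adjusted p 7.94e-07), Dazl by 1.29 (SE 0.146, adjusted p 0.00022) and Hormad1 by 1.18 (SE 0.204, adjusted p 0.00425). Tex19.1 fell by 0.74 (SE 0.053, edgeR adjusted p 6.32e-07). Sycp1 fell by 2.17 (SE 0.414, edgeR adjusted p 0.00107), from 12 to 37 counts per Set 1 library to 5, 10 and 1 counts in the untreated, siLuc and siStag3 libraries of Set 3. Taf7l, Mael, Ddx4 and Sycp3 fell by 0.53 to 0.71. Slc25a31 did not pass (-0.13, SE 0.213, edgeR adjusted p 0.647).

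The transcripts of 9 of the 10 genes are GC-poor, from 34.3% GC in Sycp3 to 44.9% in Mael, and the median of the genes tested was 49.6%. Tex19.1 is at 52.6%. When the median deviation of genes of like GC content was subtracted from each library, 8 of 10 genes still passed, all lower in Set 3, against 21.1% of genes tested. The median of the 10 was -0.70 after this correction. Stk31 was then at 43.6% of its Set 1 level, Dazl at 49.8% and Tex19.1 at 56.1%. Sycp3 no longer passed (-0.24, edgeR adjusted p 0.058), nor did it without the untreated or the siStag3 library of Set 3 (-0.47 and -0.40).

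**Figure D2:**
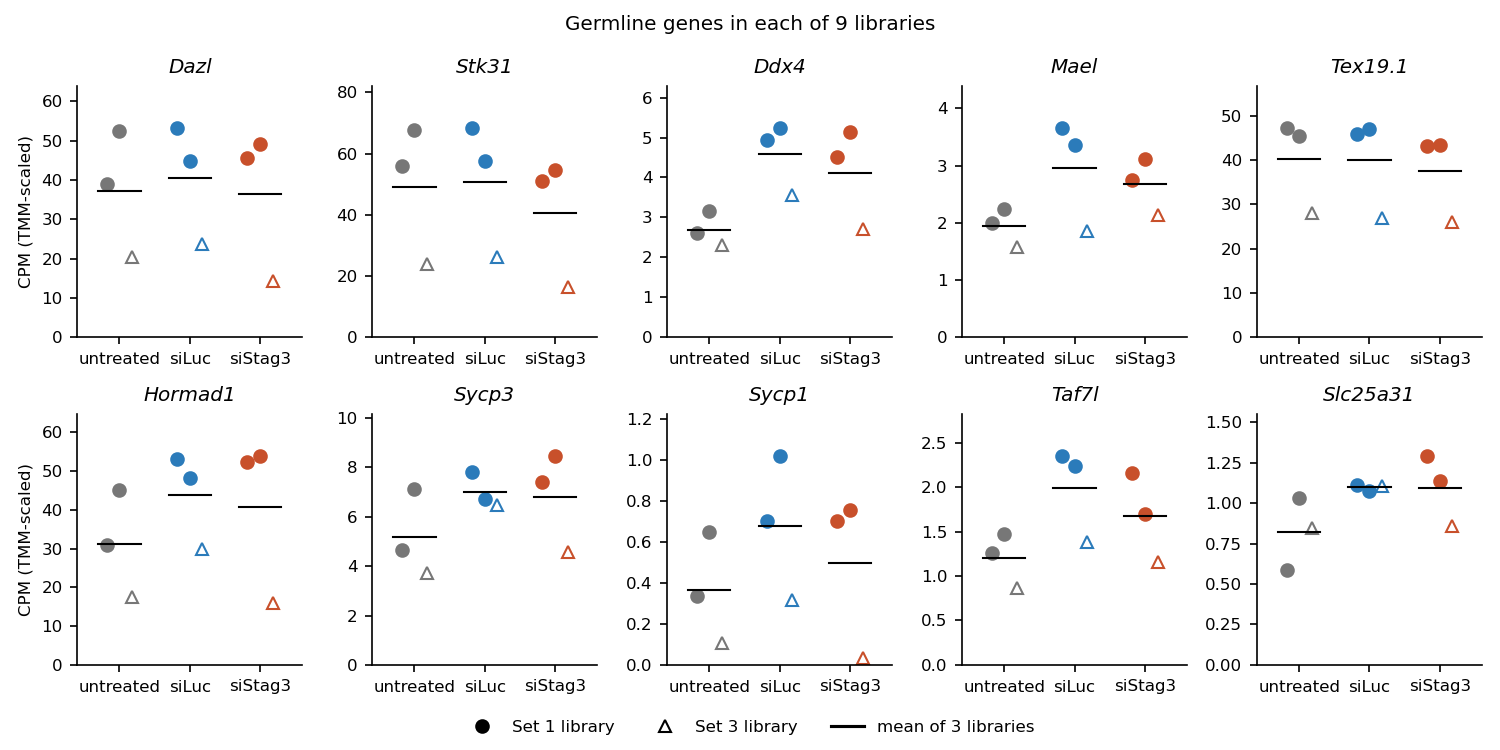
CPM of the 10 germline genes in each of 9 libraries by group, with Set 1 as filled circles, Set 3 as open triangles and the mean of 3 libraries as a line. In Stk31, Dazl, Tex19.1, Hormad1 and Sycp1 the 3 triangles lie below all circles, in the last 2 by narrow margins. In Ddx4 the siLuc libraries lie above all untreated ones.

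**Figure D3:**
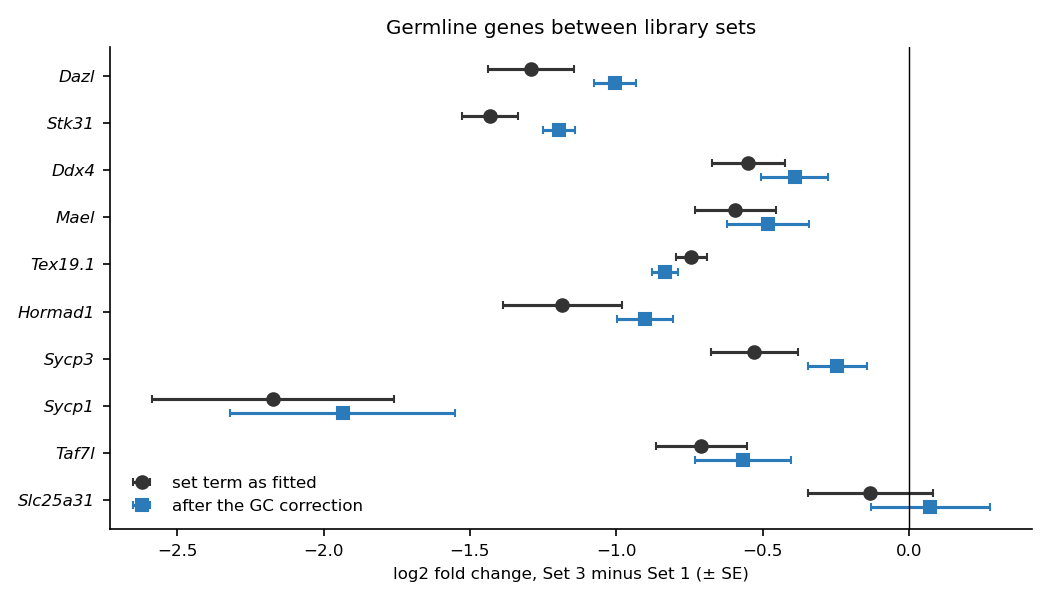
Log2 fold change of each germline gene between the library sets (Set 3 minus Set 1, ± SE) from the edgeR fit, as fitted (circles) and after the GC correction (squares). Of the 10 genes, 9 passed as fitted and 8 after the correction, and Slc25a31 lay near 0 in both.

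The comparison of siLuc with untreated cells addresses the effect of transfection with a control siRNA. In Set 3 the untreated library is of experiment 5 and the siLuc library of experiment 1, so experiment and transfection cannot be told apart within that set. Ddx4, the VASA helicase of germ granules, was at 2.61, 3.16 and 2.32 CPM in the untreated libraries (Set 1 experiment 1, Set 1 experiment 3 and Set 3, the order kept below) and at 4.93, 5.24 and 3.56 CPM in siLuc. The groups did not overlap. Ddx4 rose by 0.75 on the log2 scale, 1.68-fold (SE 0.141, edgeR adjusted p 0.0128), with differences of 0.82 within Set 1 and 0.62 within Set 3. Taf7l was at 1.26, 1.48 and 0.867 CPM in untreated cells and at 2.36, 2.24 and 1.39 CPM in siLuc. Its groups overlapped only through the Set 3 siLuc library, and it rose by 0.72, 1.65-fold (SE 0.174, edgeR adjusted p 0.0352), with 0.75 within Set 1 and 0.68 within Set 3.

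These 2 of 10 germline genes passed the test, both higher, against 4.2% of all genes tested (1.65% higher and 2.55% lower). At an unadjusted p under 0.05 there were 6 of 10, against 27.8% of all genes. On the log2 scale the 10 genes had a median of 0.50 and all genes had 0.00 (-0.00242), both without the GC correction. That correction lowered the value of each germline gene except Tex19.1. Sycp1 was then at 0.77, Ddx4 and Taf7l at 0.62, Mael at 0.51 and Hormad1 at 0.32. Slc25a31 and Sycp3 were at 0.25, Tex19.1 at 0.06, Dazl at -0.07 and Stk31 at -0.11. The calls of Ddx4 and Taf7l were lost without the set term (edgeR adjusted p 0.58 for each), a fit that called 0.00702% of all genes. Taf7l also missed the threshold in Set 1 alone (edgeR adjusted p 0.0864) and when any 1 of the 6 libraries was left out (0.0575 to 0.145). Ddx4 missed it without the untreated library of Set 1 experiment 1 (0.0641) or the siLuc library of Set 3 (0.0619).

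Other nuage and synaptonemal genes had values in the same direction that did not pass. Mael, a protein of the piRNA pathway, was at 1.99, 2.25 and 1.58 CPM in untreated cells and at 3.66, 3.37 and 1.86 CPM in siLuc, a log2 difference of 0.58 (SE 0.155, edgeR adjusted p 0.0501). Its value lay at the threshold, which it passed with DESeq2 size factors (0.049), with no filter (0.0495), at a mean of at least 50 counts (0.0477), with the 6 libraries alone (0.0342) and in Set 1 alone (0.0491). Sycp1 differed by 0.94 (SE 0.398, edgeR adjusted p 0.148), Hormad1 by 0.54 (SE 0.222, adjusted p 0.176) and Sycp3 by 0.46 (SE 0.168, adjusted p 0.107). Sycp3 passed without the untreated library of Set 1 experiment 3 (0.67, edgeR adjusted p 0.0469). Chpt1, which shares sequence with Sycp3, differed by -0.03 in the same comparison (edgeR adjusted p 0.824).

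Slc25a31 was at 0.589, 1.03 and 0.845 CPM in untreated cells and at 1.11, 1.08 and 1.10 CPM in siLuc. The groups did not overlap, but the difference of 0.41 (SE 0.245) did not pass (edgeR adjusted p 0.289). Ddx4 and Slc25a31 were thus the 2 of 10 genes whose siLuc libraries all lay above the untreated ones, as did 9.59% of all genes tested, with 10.3% lower and 19.9% apart in either direction.

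Tex19.1, Stk31 and Dazl had values closer to 0. Tex19.1 differed by -0.01 (SE 0.0589, edgeR adjusted p 0.894), Stk31 by 0.06 (SE 0.101, adjusted p 0.712) and Dazl by 0.14 (SE 0.157, adjusted p 0.60). With the GC correction Stk31 was at -0.11, Dazl at -0.07 and Tex19.1 at 0.06, so the sign of each depended on that choice. Whether Ddx4 and Taf7l differed in their response from these 3 genes was not tested.

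**Figure D4:**
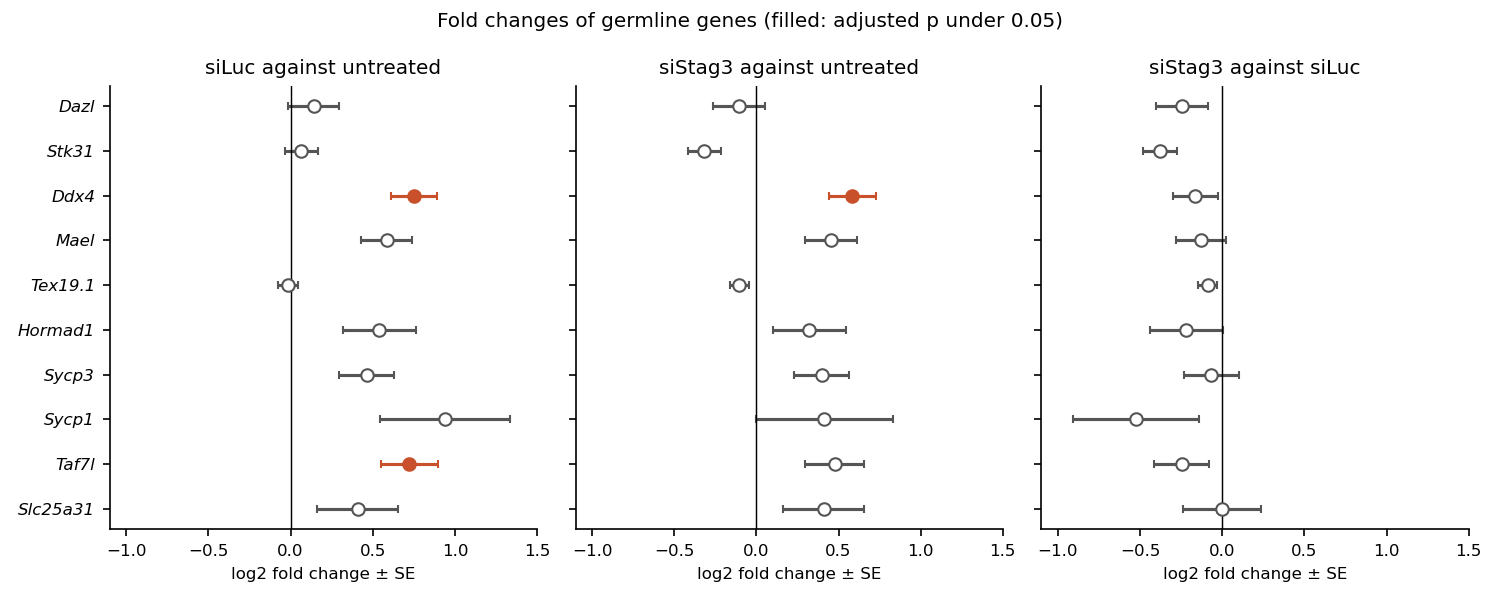
Log2 fold change (± SE, edgeR fit with group and set on all 9 libraries) of the 10 germline genes in the 3 comparisons, with filled points for an adjusted p under 0.05. Ddx4 and Taf7l passed in siLuc against untreated, Ddx4 in siStag3 against untreated, and no gene in siStag3 against siLuc.

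The comparison of siStag3 with siLuc addresses the reduction of Stag3, to 0.613 of its siLuc level, in cells that were both transfected. No germline gene passed in the edgeR test (0 of 10, against 0.0281% of all genes tested), none passed with the DESeq2 Wald test, and 1 had an unadjusted p under 0.05, against 7.88% of all genes. That gene was Stk31. It was at 68.4, 57.7 and 26.3 CPM in siLuc and at 51.0, 54.5 and 16.3 CPM in siStag3, so that in each set the siStag3 libraries lay below the siLuc libraries while the groups as a whole overlapped. The log2 difference was -0.38 (SE 0.103, edgeR adjusted p 0.394), with -0.25 within Set 1 and -0.69 within Set 3. With the GC correction it passed, at -0.30 (SE 0.0598, edgeR adjusted p 0.0284). This was the single germline gene called in any alternative of this comparison.

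The other genes of the set lay between -0.53 (Sycp1, SE 0.384) and 0.00 (Slc25a31, 0.000407, SE 0.238), and 9 of 10 values, Stk31 included, were negative with a median of -0.19. The corresponding median over all genes was 0.00 (-0.0048). Dazl differed by -0.24 (SE 0.159, edgeR adjusted p 0.725), Taf7l by -0.25 (SE 0.17, adjusted p 0.727) and Hormad1 by -0.22 (SE 0.222, adjusted p 0.817). All these values are without the GC correction. With it Sycp1 was at -0.53, Taf7l at -0.21, Dazl at -0.16 and Hormad1 at -0.13. Ddx4 and Tex19.1 were then at -0.11, Mael at -0.10, Sycp3 at 0.02 and Slc25a31 at 0.07. None of the 10 genes had groups that stood apart, against 6.59% of all genes tested (3.18% higher and 3.41% lower). Ddx4 was at 4.52, 5.14 and 2.71 CPM in siStag3, a difference from siLuc of -0.17 (SE 0.137, edgeR adjusted p 0.77).

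The values within the sets differed from gene to gene. Taf7l was at -0.26 in both Set 1 and Set 3, Tex19.1 at -0.10 and -0.05 and Ddx4 at -0.08 and -0.40. Mael was at -0.26 within Set 1 and at 0.21 within Set 3. Hormad1, a protein of the meiotic chromosome axis, was at 53.2, 48.3 and 29.8 CPM in siLuc and at 52.4, 54.0 and 15.9 CPM in siStag3, a difference of 0.07 within Set 1 and of -0.91 within Set 3. For Dazl the same values were -0.05 and -0.73, and for Sycp3 0.13 and -0.50. Without the siStag3 library of Set 3, Hormad1 was at 0.02 and Sycp3 at 0.05, and without the siLuc library of Set 3 they were at -0.02 and 0.11. An interaction of group and set, added after the data were seen, gave a difference between the sets of -0.98 for Hormad1 (SE 0.299, edgeR adjusted p 0.13) and of -0.68 for Dazl (SE 0.262, edgeR adjusted p 0.185). None of the 10 genes passed in this test, which called 1.12% of all genes. For Sycp1 the difference between the sets was -2.87 (SE 1.28), with 1 count in the siStag3 library of Set 3 and 10 in the siLuc one. Set 3 has 1 library per group, and the siLuc one is of experiment 1 while the siStag3 one is of experiment 5, so experiment and treatment cannot be told apart within that set.

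The comparison of siStag3 with untreated cells joins both changes and uses the same untreated libraries as above. Ddx4 was the 1 germline gene of 10 that passed, against 2.53% of all genes tested (1.07% higher and 1.46% lower), and 5 of 10 had an unadjusted p under 0.05, against 17% of all genes. At 4.52, 5.14 and 2.71 CPM in siStag3 against 2.61, 3.16 and 2.32 CPM in untreated cells, the groups overlapped through the Set 3 library. Ddx4 rose by 0.58 on the log2 scale, 1.5-fold (SE 0.142, edgeR adjusted p 0.0466), with 0.75 within Set 1 and 0.22 within Set 3. The call was lost without the set term (edgeR adjusted p 0.787; 0.014% of all genes called), under scaling by total count (0.0624), with the 6 libraries alone (0.0864), and without any 1 of the 3 untreated or 2 Set 1 siStag3 libraries (0.0862 to 0.203). It held without the siStag3 library of Set 3 (0.71, adjusted p 0.0107).

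Taf7l was at 2.16, 1.70 and 1.16 CPM in siStag3, with a log2 difference from untreated cells of 0.48 (SE 0.178, edgeR adjusted p 0.189). Mael was at 2.75, 3.12 and 2.15 CPM, with a difference of 0.45 (SE 0.157, adjusted p 0.154). Sycp3 was at 0.40 (SE 0.168, adjusted p 0.255) and Hormad1 at 0.32 (SE 0.222, adjusted p 0.507). Stk31 was at -0.32 (SE 0.102, edgeR adjusted p 0.134), and at -0.41 (SE 0.0595, adjusted p 0.000216) with the GC correction, under which it passed. The median of the 10 genes was 0.40, beside -0.01 (-0.00561) for all genes, both without the GC correction. With it Ddx4 was at 0.51, Taf7l and Mael at 0.41, Slc25a31 at 0.32 and Sycp3 at 0.27. Sycp1 was then at 0.25, Hormad1 at 0.19, Tex19.1 at -0.06 and Dazl at -0.23. None of the 10 genes had groups that stood apart, against 10% of all genes tested (4.63% higher and 5.38% lower).

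Other germline genes were counted by list. Some genes belong to more than 1 list, and the members themselves are counted in theirs. Between the sets, 7 of 9 tested synaptonemal and axis genes fell in Set 3 and none rose, among them Syce1 of the central element (-0.60, SE 0.0827, edgeR adjusted p 0.000113), while Syce2 of the same element did not pass (0.09). Of 23 piRNA and nuage genes 13 fell and none rose, with Rnf17, a Tudor-domain protein of germ cells and at 173 CPM on average one of the most abundant, at -0.76 (edgeR adjusted p 2.93e-06). Of 12 germ cell RNA-binding and transcription factor genes 7 fell and 1, the RNA-binding Dnd1, rose (0.71, edgeR adjusted p 5.94e-05). Of 21 meiotic recombination genes 6 fell and 2 rose, against 21.2% of all genes tested that fell and 21.4% that rose. With the GC correction the numbers that fell were 6, 13, 7 and 5 in this order, and those that rose were 0, 0, 2 and 2. Of the PRC1.6 subunits 3 of 15 fell and none rose, or 2 fell and 2 rose with the GC correction. With that correction 21.1% of all genes fell and 21.4% rose. Of the DNA and H3K9 methylation genes 5 of 17 fell and 2 rose, or 8 and 2 with the GC correction. Of 7 relatives of the members, such as Taf7, 4 fell with a median of -0.51. Of 6 primordial germ cell markers, which include Nanos3 and Dnd1, none fell and 2 rose, Dnd1 and Prdm1 (0.40, edgeR adjusted p 0.000272), with a median of 0.08.

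In siLuc against untreated cells, edgeR called 1.65% of all genes tested higher and 2.55% lower. Of 23 piRNA and nuage genes 2 rose, Ddx4 and Rnf17 (153 ± 39.5 to 189 ± 44.4 CPM, log2 0.30, edgeR adjusted p 0.0352). Of 12 germ cell RNA-binding and transcription factor genes 2 rose, Taf7l and Sohlh2, a helix-loop-helix factor of germ cells (27.5 ± 6.70 to 35.1 ± 8.20 CPM, log2 0.36, edgeR adjusted p 0.0126), and 1 fell. This was Stra8, the retinoic acid-induced gene of meiotic entry, which went from 15.3 ± 1.43 to 10.3 ± 2.38 CPM (log2 -0.60, edgeR adjusted p 0.0118). None of 9 synaptonemal, 21 recombination or 15 PRC1.6 genes passed in edgeR, with 4, 3 and 5 at an unadjusted p under 0.05 and 0, 2 and 1 called by DESeq2, against 27.8% and 9.32% of all genes. Of the 6 primordial germ cell markers 1 rose, Prdm1, a transcriptional repressor of germ cell specification (24.3 ± 3.73 to 30.3 ± 6.84 CPM, log2 0.31, edgeR adjusted p 0.0345). Of the relatives of the members, such as Taf7 and the somatic ADP/ATP carriers Slc25a4 and Slc25a5, 7 of 7 had positive values and none passed in edgeR. Of these, 4 were at an unadjusted p under 0.05 and 3 were called by DESeq2, against 27.8% and 9.32% of all genes.

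In siStag3 against untreated cells edgeR called 1.07% of all genes tested higher and 1.46% lower. The piRNA genes that rose were Ddx4 and D1Pas1, a testis-specific helicase gene (log2 0.29, edgeR adjusted p 0.0343). The germ cell factor genes that fell were Stra8, at 8.80 ± 1.6 CPM (log2 -0.82, edgeR adjusted p 0.00156), and Nanos3, a factor of primordial germ cell survival (2.86 ± 0.39 to 1.64 ± 0.308 CPM, log2 -0.81, adjusted p 0.0452). Of 17 DNA and H3K9 methylation genes 1 fell, Dppa3, a maternal and germ cell factor known for its effect on DNA methylation (log2 -0.86, edgeR adjusted p 0.000781). In siStag3 against siLuc none of the listed genes passed in edgeR, and 1 of the 17 methylation genes did in DESeq2, which called 0.154% of all genes. Without the set term none of the listed calls against untreated cells held (edgeR adjusted p 0.0604 to 0.93). Those of Stra8 and Dppa3 in siStag3 held in 6 of 6 fits that left out a library, Stra8 in siLuc held in 4 (lost without either Set 3 library), Sohlh2 in 3 (lost without either Set 3 library or siLuc Set 1 experiment 1), and Rnf17, Prdm1, D1Pas1 and Nanos3 in 1 each. That 1 fit was without the siStag3 library of Set 3 for D1Pas1 and Nanos3, and without siLuc Set 1 experiment 3 for Rnf17 and Prdm1. The highest adjusted p of these 4 genes was 0.187 to 0.269. Rnf17 did not pass with the GC correction (edgeR adjusted p 0.0763) and under scaling by total count D1Pas1 (0.0695) and Prdm1 (0.0525) did not.

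The genes most like the 3 members of highest mean CPM were found by Pearson's r of log2 CPM over the 9 libraries and 11228 other genes. Levels were centred within each set and had no GC correction. With so few libraries, which share groups and experiments, the r values describe likeness only. For Stk31 they were Tor1aip2 (0.974), the meiotic recombinase gene Dmc1 (0.965) and Pot1b (0.959). For Tex19.1 they were Mbp (0.972), Klhl21 (0.970) and Pde4a (0.961). For Hormad1 they were 2210418O10Rik (0.998), Vbp1 (0.998) and Ube2v2 (0.997).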

How the data were processed

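mRNA libraries (KAPA mRNA HyperPrep, per the labels' protocols) were sequenced from 9 samples. The authors deposited raw counts per gene. FastQC, Salmon, DESeq2 and the build GRCm39 are listed in the submitters' processing notes without roles, and because Salmon estimates counts the whole numbers may be rounded. The strand setting and annotation release are not given in the sources used here. The smallest row sum was 9, so the lowest genes are not analysed here. Column names gave the group, set and experiment and not the replicate number.

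Genes were tested with edgeR 4.0.16 (R 4.3.3): filterByExpr, TMM, robust quasi-likelihood F test, all 9 libraries, group means plus library set, two-sided p-values adjusted by Benjamini-Hochberg over 14246 genes, threshold 0.05. The SE is the absolute log2 fold change over the square root of F. The biological coefficient of variation was 7.62% with the set term and 14.6% without. On simulated counts for 14102 genes (siStag3 against siLuc) 86.3% of log2 changes of 1 and 69.4% of 0.5 were recovered, with 16 false calls among 172. The simulation held only an additive set effect and planted changes, without deviations by GC content or changes that differ between sets. The measured libraries gave 4 calls in this comparison, so these rates do not give the power for the germline genes. The GC correction used 20 bins of GENCODE M21 transcripts, which hold 16604 of the genes. DESeq2 1.42.0 was an alternative.

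The members and lists were chosen with earlier results of these data known. Named genes are the 10 members, Stag3, listed genes that passed or were the 2 most abundant of a list, and the 3 genes most like each of the 3 most abundant members. Others, chosen after their values were seen, are Syce1, Dnd1, Chpt1 and the relatives of the members.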

Additional observations from a re-analysis of the deposited data

How the results depend on the processing

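The columns number sets and experiments and not the replicates of the titles, and no label says that an experiment pairs libraries. Over 14246 genes the differences between experiments 3 and 1 of Set 1 correlated between groups at -0.0254, -0.0439 and -0.0371, so the numbers share no visible deviation. A replicate block of set and experiment (Set 1 experiment 1, Set 1 experiment 3, Set 3), also chosen after the data were seen, called 4, 317 and 268 genes for siStag3 against siLuc, siLuc against untreated and siStag3 against untreated, and 0, 1 and 0 germline genes. Under this block Ddx4 passed in siLuc (edgeR adjusted p 0.0174), and Taf7l in siLuc (0.0562) and Ddx4 in siStag3 (0.0553) did not. The comparison of sets, its alternatives and the interaction were chosen after the data were seen. Low counts limit Sycp1, Slc25a31, Taf7l and Mael. Why these values moved was not tested.

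For siStag3 against siLuc, 4 genes passed over all genes, and 0 without the set term, 51 with the GC correction, 22 with DESeq2, 1 with the 6 libraries compared and 0 to 4 with 1 library left out (0 without siStag3 Set 1 experiment 1). Of the germline genes 0 passed, and 1 with the GC correction. For siLuc against untreated, 598 genes passed, and 1 without the set term, 1016 with the GC correction, 1328 with DESeq2, 1801 with the 6 libraries, 298 in Set 1 alone and 111 to 387 with 1 library left out. Of the germline genes 2 passed, and 0 without the set term, 1 with DESeq2, which gave Taf7l no adjusted p, and 0 to 2 with 1 library left out. Scaling by total count moved the split over all genes from 235 higher and 363 lower to 161 and 600. For siStag3 against untreated, 361 genes passed, and 2 without the set term, 932 with the GC correction, 949 in Set 1 alone and 78 to 1591 with 1 library left out (1591 without the siStag3 library of Set 3). The split of 153 higher and 208 lower became 100 and 256 under total count. Of the germline genes 1 passed, and 0 without the set term, 2 with the GC correction, 0 under total count, 0 with the 6 libraries and 0 to 1 with 1 library left out. Between the sets 8 or 9 of 10 germline genes passed under every alternative run.

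Directions turned only for values that did not pass. In siStag3 against siLuc, Sycp3 (-0.07) was at 0.0203 with the GC correction, 0.13 in Set 1 alone and -0.19 to 0.11 with 1 library left out. Slc25a31 (0.000407) was at -0.00033 with DESeq2, -0.000409 with no filter, -0.00646 with the 6 libraries and -0.12 to 0.16 with 1 left out. Hormad1 (-0.22) was at 0.0676 in Set 1 alone and -0.34 to 0.0152 with 1 left out. In siLuc against untreated, the GC correction put Dazl at -0.0721, Tex19.1 at 0.0556 and Stk31 at -0.11. Tex19.1 was at 0.00769 in Set 1 alone and -0.0351 to 0.0075 with 1 left out, and Stk31 at -0.0213 to 0.16. In siStag3 against untreated, Dazl (-0.10) was at 0.0539 in Set 1 alone and -0.24 to 0.0733 with 1 left out. Between the sets Slc25a31 was at 0.0723 with the GC correction and -0.25 to 0.0399 with 1 left out.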
